A study of Mus musculus with 13 samples.

Results

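The cells described here are the endothelial cells, and the few collagen-bearing stromal cells, that came through a selection for F4/80 in the E13.5 mouse fetal liver (FL). They were found in 1 single-cell library by their transcripts alone. A cell was kept if at least 200 genes were detected, if Kdr, Cdh5, Stab2, Col1a1, Col1a2 and Col3a1 together reached 5 counts per 10000 counts of that cell, if the C1q genes C1qa, C1qb and C1qc stayed under 10 per 10000, and if Alb, Afp, Apoa1 and Ttr stayed under 50 per 10000. Of 3096 barcodes, 3093 passed the gene minimum and 69 met every condition, which is 2.23% of the cells kept (exact binomial 95% interval 1.74 to 2.82%). In 67 of them Kdr, Cdh5 and Stab2 exceeded the collagens (the endothelial set), and in 2 the collagens were higher (the mesenchymal set). The mesenchymal part therefore rests on 2 cells, and no statement about it goes beyond those 2 cells.

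The series asked how the erythroid transcription factor EKLF (Klf1) acts in F4/80+ cells of the FL, where macrophages form the centre of erythroblastic islands. All samples were taken at E13.5 and are labelled C57BL/6, although the study's list of reagents names 129S4/SvJae as the background of the EKLF-null line. Whether EKLF+/+ and EKLF-/- embryos shared a background is not given in the sources used here, and the part of strain in that comparison was not tested. The single-cell library came from wild type FL cells of littermate embryos of a single mother, selected on magnetic beads for F4/80 in the presence of a peptide that blocks the binding of Icam4 to αv integrin. Bulk RNA-seq was made from F4/80+ cells sorted by flow cytometry, with 3 libraries each of EKLF+/+ (wild type), EKLF-/- (null, the embryos are anemic), EKLF/GFP+ and EKLF/GFP- cells. The latter 2 groups are fractions of wild type pEKLF-GFP reporter livers, in which GFP is driven by the EKLF promoter. RNA of EKLF/GFP+ cells was extracted with a column kit and all other RNA with Trizol, so kit and population cannot be told apart in that comparison. The paper gives a lower RNA integrity number for EKLF/GFP+ cells than for EKLF+/+ and EKLF-/- cells. It gives none for EKLF/GFP- cells, so RNA quality cannot be told apart from population either. Beyond the statement that they are biological replicates, the sources do not say which livers went into which library.

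Endothelial cells line the vessels of the FL, and in the sinusoids they form a thin, perforated wall that takes up proteins and hyaluronan from the blood through scavenger receptors such as the stabilins. VEGF receptors (Kdr, Flt1, Flt4) and the angiopoietin receptor Tek carry the main growth signals to these cells, and VE-cadherin (Cdh5) and claudin 5 (Cldn5) hold them together. Stromal cells beside the sinusoids, among them the retinoid-storing stellate cells, make fibrillar collagens and small proteoglycans and are a known source of the chemokine Cxcl12. The F4/80 protein itself is encoded by Adgre1 and is best known from macrophages.

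The gene bodies of the 6 rule genes and of 2 sinusoidal genes lie, on GRCm38 with the GENCODE M21 annotation, at chr5:75932827-75978458 on the minus strand (Kdr), chr8:104101625-104144511 on the plus strand (Cdh5), chr10:86841198-87008025 on the minus strand (Stab2), chr11:94936224-94953042 on the plus strand (Col1a1), chr6:4504814-4541544 on the plus strand (Col1a2), chr1:45311538-45349706 on the plus strand (Col3a1), chr7:110850607-110863239 on the minus strand (Lyve1) and chr10:59422958-59441778 on the minus strand (Oit3). The 250 bases before the start of 3 genes are shown from RefSeq (GRCm38.p6), 5′ to 3′ on the strand of the gene. Flt1 and Cldn5 were chosen as genes higher in the endothelial set and Col3a1 as a gene higher in the mesenchymal set. Col3a1 is a rule gene, so its difference between the sets was fixed by the rule. Flt1 lies at chr5:147726012-147726261 (minus), Cldn5 at chr16:18776597-18776846 (plus) and Col3a1 at chr1:45311288-45311537 (plus). Capitals mark matches on either strand to any of 5 motifs, and neighbouring matches can overlap. The motif for ETS factors was AGGAAG, a core that this family of endothelial regulators is known to bind. For forkhead factors the letters searched were TGTTTAC. The motif for GATA factors was AGATAAG, the form best known from blood and vessel genes. EKLF and its relatives were represented by CCNCNCCC. The TATA box, a core promoter element, was searched as TATAAA.
Flt1: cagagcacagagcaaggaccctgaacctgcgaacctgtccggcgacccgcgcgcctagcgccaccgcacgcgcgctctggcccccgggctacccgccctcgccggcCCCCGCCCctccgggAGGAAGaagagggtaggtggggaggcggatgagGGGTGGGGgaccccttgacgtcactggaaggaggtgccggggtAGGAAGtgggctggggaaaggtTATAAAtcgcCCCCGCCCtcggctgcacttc
Cldn5: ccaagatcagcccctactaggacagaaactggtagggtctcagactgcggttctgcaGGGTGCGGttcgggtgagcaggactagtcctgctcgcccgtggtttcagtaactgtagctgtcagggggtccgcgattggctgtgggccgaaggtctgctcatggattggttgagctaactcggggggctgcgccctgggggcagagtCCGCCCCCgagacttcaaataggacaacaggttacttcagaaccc
Col3a1: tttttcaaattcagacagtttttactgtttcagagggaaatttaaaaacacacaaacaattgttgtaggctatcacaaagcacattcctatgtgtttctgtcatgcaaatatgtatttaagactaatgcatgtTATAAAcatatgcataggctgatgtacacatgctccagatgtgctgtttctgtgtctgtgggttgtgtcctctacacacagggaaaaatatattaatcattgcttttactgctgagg
The Flt1 window held AGGAAG at 129 and 53 bases before the start and a TATA box 31 bases before it, and the Col3a1 window held a TATA box 117 bases before the start. Of the 15 genes with the largest ratio of endothelial over mesenchymal set, 10 had a RefSeq promoter, with 12 windows in all because S100a16 and Ctla2a each had a pair of starts. The rankings include rule genes, Kdr and Stab2 here and Col3a1 and Col1a2 in the other direction. AGGAAG was in 7 of the 12 windows (Flt1, Plxnd1, Rps27rt, Stab2, Stab1 and 1 window each of S100a16 and Ctla2a), as it was in 29.5% of all 32851 windows of the same length. Among the 10 windows of the 15 genes with the largest ratio of mesenchymal over endothelial set, 3 contained AGGAAG. CCNCNCCC was in 8 of the 12 endothelial and 8 of the 10 mesenchymal windows, beside 45.9% of all windows. The GATA motif was in 0 of the 12 endothelial and 3 of the 10 mesenchymal windows (2.74% of all), the forkhead motif in 0 and 1 (3.17% of all), and the TATA box in 3 and 1 (12.4% of all). These matches describe letters in a short window and are not sites of binding.

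The values that chose the endothelial set are described first and say nothing about its label. The sum of Kdr, Cdh5 and Stab2 ran from 5.03 to 46.4 per 10000 with a median of 20.4, and 66 of the 67 cells carried a count of all 3 genes. Any count of Col1a1, Col1a2 or Col3a1 was present in 10 of the 67 cells, with a highest sum of 2.84 per 10000. The 3 cells nearest to the marker minimum from within had sums of 5.03, 5.36 and 5.58 per 10000, and the 3 nearest from outside had 4.64, 3.89 and 3.54. At the C1q limit, members nearest to it had 8.82, 7.77 and 7.44 per 10000 and the nearest cells excluded by it 10.0, 10.1 and 11.4. The highest sum of hepatic markers in a member was 16.6 per 10000, far from the limit of 50.

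**Figure D1:**
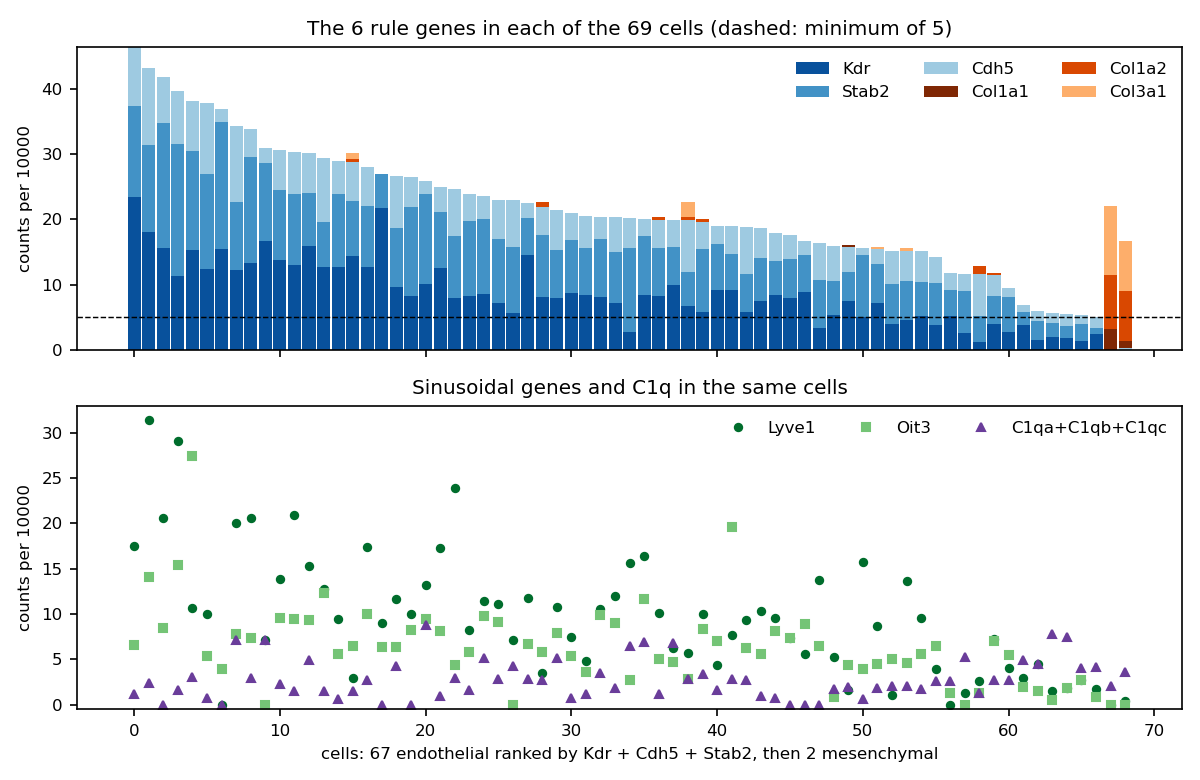
Upper panel, counts per 10000 of the 6 rule genes stacked for each of the 69 cells, with the minimum of 5 as a dashed line. Lower panel, counts per 10000 of Lyve1, Oit3 and the summed C1q genes in the same cells. The 67 endothelial cells on the left are ranked by Kdr, Cdh5 and Stab2, which fall from 46.4 to 5.03, and the 2 mesenchymal cells on the right are the only ones with collagens over 2.84 per 10000.

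An unsupervised clustering of all cells gave 14 clusters, and a single cluster of 84 cells held 66 of the 69 members, 64 endothelial and both mesenchymal. The rule and the clustering used the same counts, so this overlap is a description. The other 18 cells of that cluster had C1q at 10 per 10000 or more (12 cells) or markers under 5 (11 cells), 5 of them both. The 3 members outside the cluster sat close to the marker minimum. The first had 5.58 per 10000 of the markers and 4967 genes in 5378 counts, the next 5.70 of the markers beside 7301 of globin, and the last 5.03 of the markers beside 5.87 of the leukocyte gene Ptprc. The globin-rich cell alone raised the summed globin level of the endothelial set, for example that of Hba-a1 from 15.9 per 10000 in the 64 cells of the cluster to 58.2 in all 67. Other levels given below moved little without these 3 cells, Kdr from 8.70 to 8.93 and Stab2 from 8.17 to 8.40.

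The C1q limit set the size of the group. Without it, 255 cells would have been members, because 187 cells with C1q at or over the limit also reached 5 per 10000 of the 6 markers. Of these 187 cells, 181 fell under 5 once Cdh5 was left out, and only 5 had both Kdr and Stab2 at 2 per 10000 or more. The macrophage set thus carried Cdh5 at 1.71 per 10000, while Kdr there was 0.0753. With neither the C1q limit nor Cdh5 in the sum, a choice made after seeing the data, 70 cells were members.

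Levels were next set beside those of the other cells in the library, which were 1663 cells with C1q at 10 per 10000 or more (the macrophage set), 58 cells with hepatic markers at 50 or more (the hepatic set) and 1303 further cells, called the other cells. A level is the sum of counts over a set per 10000 counts, with an exact Poisson 95% interval. There is 1 library, so cells are not replicates, no test was made, and all intervals cover counting error only. Median depth was 15870 counts in the endothelial set (range 4198 to 51080), 14100 in the macrophage set, 37290 in the hepatic set and 24860 in the other cells, and the 2 mesenchymal cells had 9511 and 27406 counts. When each cell was thinned to 2000 counts, the median number of detected genes was 1115 in the endothelial set, 1048 in the macrophage set, 919 in the hepatic set and 943 in the other cells.

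Sinusoidal genes gave the endothelial set its character. Lyve1, a hyaluronan receptor of sinusoidal and lymphatic endothelium, stood at 10.3 per 10000 (9.74 to 10.96, 1114 counts), against 0.128 in macrophages, 0.0397 in hepatic cells and 0.0156 in the other cells. The median cell had 9.51 and the range was 0 to 31.4, so a few endothelial cells lacked it. Ehd3 (9.09), Oit3 (6.89) and Gpr182 (6.61 per 10000) were at most 0.153 in the macrophage, hepatic and other cells. Stab2, which helped to choose the cells and is only described, stood at 8.17 per 10000, with 0.433 in macrophages. Further down stood the scavenger receptor gene Stab1 (6.19), the growth factor Bmp2 (2.73), the nuclease Dnase1l3 (1.20), the transcription factor Gata4 (1.04) and coagulation factor VIII, F8 (1.03 per 10000).

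Not all genes of the sinusoid were private to these cells. The mannose receptor Mrc1 stood at 6.86 in the endothelial set and 2.78 per 10000 in macrophages, and the transcription factor Maf at 10.4 and 5.31. Cathepsin L (Ctsl) was at 6.99 in endothelial, 5.91 in hepatic and 3.29 in macrophage cells. Clec4g and Fcgr2b, further sinusoidal genes, were near the floor of the set at 0.26 and 0.03 per 10000.

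Genes of all endothelium followed. Kdr stood at 8.70 per 10000 (8.15 to 9.28, 938 counts) in the endothelial set. The adrenomedullin co-receptor Ramp2 was at 7.43, Egfl7 at 7.09, the TGF-β co-receptor Eng at 5.10, Cldn5 at 4.90, Cdh5 at 4.81, Flt1 at 4.04, the diaphragm protein Plvap at 3.21, Flt4 and Pecam1 both near 2.4 and Tek at 2.03 per 10000. Kdr, Cdh5 and Stab2 chose the cells, so the endothelial label was read from the other genes of this group and from Lyve1, Oit3 and Gpr182. Among endothelial transcription factors, Ets1 (5.52), the venous factor Nr2f2 (4.35), Ets2 (2.67) and Elk3 (2.35) were the highest, and Sox18 (0.872), Sox17 (0.779) and Erg (0.501) were under 1 per 10000. EKLF itself gave 2 counts in the whole endothelial set, a level of 0.019 against 0.735 per 10000 in the other cells.

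A gene was called restricted if its level in a set was at least 1 per 10000 and at least 4 times that in macrophages, hepatic cells and the other cells. By this measure 162 of 1535 genes at 1 per 10000 or more, 10.6%, were restricted to the endothelial set. Of the listed genes at that level, the restricted ones were 23 of 24 for endothelial identity, 10 of 14 for sinusoidal endothelium, 4 of 7 for endothelial transcription factors, 4 of 6 for basement membrane, 2 of 2 for arterial, venous and lymphatic endothelium and 1 of 3 for niche and growth factors. Genes of the mesenchymal lists passed as well, with 2 of 2 for fibrillar collagens and matrix (Sparc and Serpinh1), 2 of 2 for stellate and mesenchymal identity (Vim and Nes) and 1 of 1 for smooth muscle and pericyte (Mcam). None of the 5 macrophage, 5 erythroid and 6 cell cycle genes at 1 per 10000 passed, nor did the 2 early response and 1 each of the hepatoblast and megakaryocyte genes. In all, 48 listed genes were restricted to the endothelial set, and 12 of these were also restricted to the 2 mesenchymal cells. The set was chosen with some of these genes and named for others, so the counts describe it and do not test it.

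**Figure D2:**
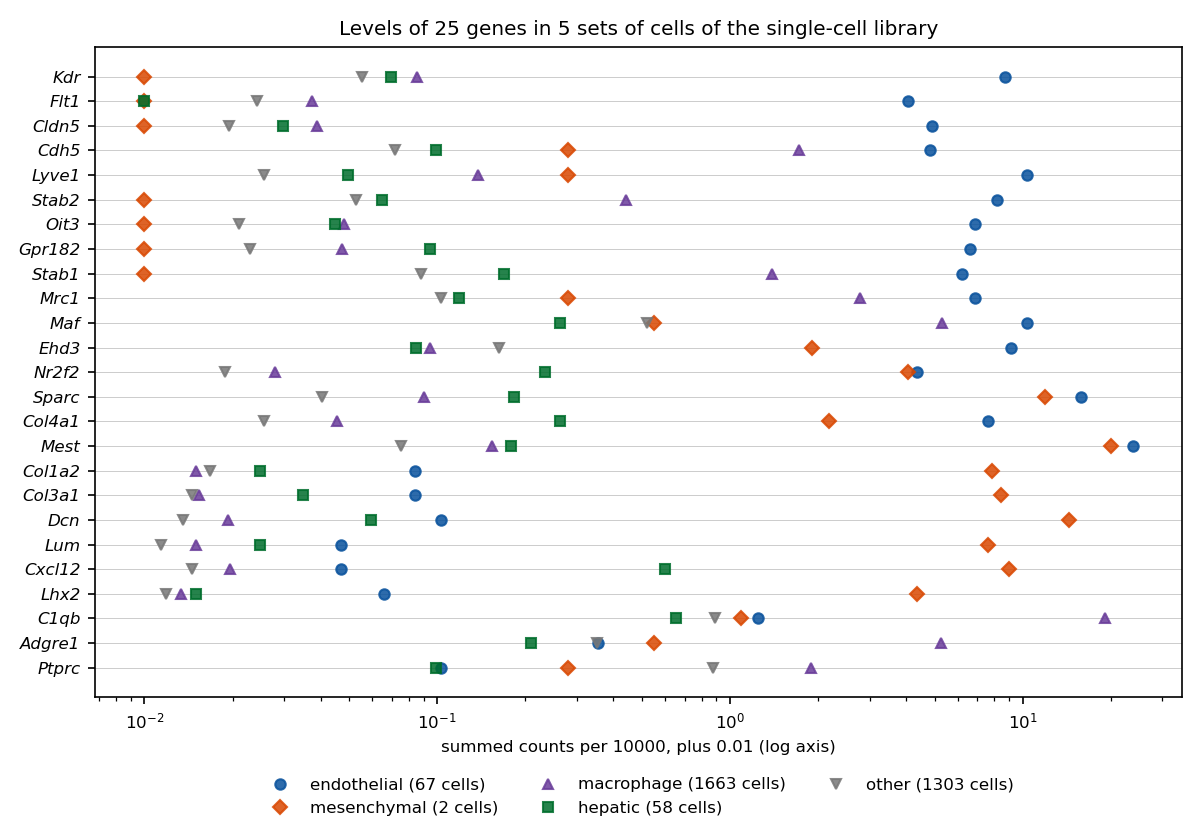
Summed level, as counts per 10000 plus 0.01 on a log axis, of 25 genes in the endothelial set (67 cells), the mesenchymal set (2 cells), macrophages (1663), hepatic cells (58) and all other cells (1303). Endothelial and sinusoidal genes from Kdr to Ehd3 are highest in the endothelial set, the genes from Col1a2 to Lhx2 in the mesenchymal set, Nr2f2, Sparc and Mest are high in both, and C1qb, Adgre1 and Ptprc are highest in macrophages.

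The 67 cells held a large part of the transcripts of such genes in the library. They contributed 82.1% of all Oit3 counts, 80.7% of Cldn5, 80.1% of Gpr182, 76.4% of Flt1, 71.1% of Lyve1 and 69.7% of Kdr (exact binomial 95% interval 67.2 to 72.2%). Kdr, Stab2 and Cdh5 helped to choose the cells, so their shares are partly set by the rule. The part was smaller where a gene was also found elsewhere. Only 37.5% of Stab2, 13% of Stab1 and 8.81% of Cdh5 counts lay in the endothelial set, and 55.3%, 80.8% and 87.0% lay in macrophages. For Egfl7 the endothelial set held 25.3% and the other cells 62.2%, and for the intermediate filament gene Vim 8.71% and 58.9%.

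Shares of cells with a count are given for Lyve1 and Cldn5, which played no part in the rule. After thinning to 2000 counts, 76.1% of endothelial cells had a Lyve1 count, against 2.17% of macrophages, 0% of hepatic cells and 0.461% of the other cells. Without thinning, the shares for Lyve1 were 97.0% against 11.6, 3.45 and 3.45%. For Cldn5 the thinned shares were 58.2% against 0.963, 0 and 0.461%, and the unthinned shares 92.5% against 2.89, 1.72 and 2.38%. The unthinned shares of 3.45% and 1.72% in the hepatic set rest on 58 cells of greater median depth. Whether these counts came from free RNA, from doublets or from the cells themselves was not tested. The median depths of the sets are given above.

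Ranked by ratio to the highest of the 3 other sets, a ranking made after seeing the data, the list was led by Mest, an imprinted gene of the embryo, at 23.7 per 10000, the matricellular protein Sparc at 15.9 and the fatty acid carrier Fabp4 at 11.4. Basement membrane genes were part of the same picture. Col4a1 stood at 7.59, the heparan sulfate proteoglycan Hspg2 at 3.70, Col4a2 at 2.59 and nidogen 1 (Nid1) at 2.50 per 10000, each at most 0.268 in the macrophage, hepatic and other cells. The collagen chaperone Serpinh1 was at 4.73 per 10000. Further members of this ranking were Cavin2 (6.99), Rasip1 (3.66), Esam (3.73) and Gap43 (3.12 per 10000).

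The endothelial cells differed among themselves. Fabp4 ran from 0 to 50.4 with a median of 5.66 per 10000, and Bmp2 from 0 to 16.98 with a median of 1.94. Counts of the arterial genes Dll4, Efnb2 and Sox17 were present in 33, 32 and 31 of 67 cells, with lowest and highest levels of 0 and 3.14, 0 and 5.50, and 0 and 6.80 per 10000. The arterial gap junction genes Gja4 and Gja5 had counts in 9 and 3 cells. The lymphatic factor Prox1 had 5 counts in 5 cells, and the lymphatic genes Pdpn and Ccl21a had none. The proliferation genes Mki67 or Top2a reached 2 per 10000 in 25 of the 67 cells, and their levels in the set (2.01 and 2.20) lay below those in the other cells (4.35 and 3.44).

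Macrophage transcripts were low but present. The median of the summed C1q genes was 2.59 per 10000 in the endothelial set, 45.2 in macrophages, 1.52 in hepatic cells and 1.62 in the other cells, and 7 endothelial cells had no C1q count. The rule itself capped C1q. Adgre1, the gene of the F4/80 antigen used for the selection, had counts in 19 of 67 endothelial cells and a level of 0.343 per 10000, against 5.23 in macrophages and 0.343 in the other cells, and after thinning the shares were 4.48, 59.6 and 7.37% of cells. Ptprc had counts in 4 cells. How the endothelial cells came through the selection was not tested. Median globin was 40.3 per 10000, compared with 47.0 in macrophages, 32.1 in hepatic cells and 46.7 in the other cells.

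The 2 mesenchymal cells had all 3 collagens and neither Kdr nor Stab2. Col3a1 was at 10.5 and 7.66 per 10000 in the 2 cells, Col1a2 at 8.41 and 7.66, and Col1a1 at 3.15 and 1.09. Beyond the rule genes, both carried the small proteoglycans decorin (Dcn, 18.9 and 12.8 per 10000) and lumican (Lum, 7.36 and 7.66). Both also had genes of stellate cells, namely the transcription factors Lhx2 (6.31 and 3.65) and Hand2 (3.15 and 1.82), and the retinol esterifying enzyme Lrat (1 and 4 counts). Reln, a further gene of that list, was at 8.41 and 3.28 but was also found in hepatic cells (1.57 per 10000) and was not restricted to the 2 cells. Desmin (Des) had 0 and 4 counts. The receptor Pdgfra had 4 counts and 1 count, and Plvap was absent from the first cell and at 5.84 in the second.

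Secreted factors were part of the profile of these 2 cells. Cxcl12, which retains hematopoietic progenitors, was at 14.7 and 6.93 per 10000, against 0.0371 in the endothelial and 0.591 in the hepatic set. The Wnt enhancer Rspo3 was at 3.15 and 7.66, Gdf10 at 3.15 and 6.57, and midkine (Mdk) at 2.10 and 8.03 per 10000. The colony stimulating factor of macrophages, Csf1, had 4 and 2 counts. Itm2a (56.8 and 12.4) and Dlk1 (25.2 and 15.3) were the highest of the 15 genes ranked by ratio over the endothelial set, but Dlk1 was as high in hepatic cells (summed level 17.9 in the 2 cells, 17.8 in hepatic cells). The complement genes Masp1 (5.42) and Colec11 (5.15) and the noncoding Rian (9.75 per 10000, summed) were in the same ranking, and Rian was at 9.86 in hepatic cells.

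Some genes were shared by both sets and low elsewhere. Mest stood at 23.7 in the endothelial and 20.04 in the mesenchymal set, Sparc at 15.9 and 11.9, Nr2f2 at 4.35 and 4.06, and Gata4 at 1.04 and 1.08 per 10000. Vim was at 11.1 and 7.04, but also at 2.18 in the other cells and 1.44 in macrophages, and was restricted to the endothelial set alone. Of the listed genes at 1 per 10000 or more, those restricted to the mesenchymal set were 13 of 14 for fibrillar collagens and matrix, 14 of 17 for stellate and mesenchymal identity, 5 of 5 for basement membrane, 3 of 3 for smooth muscle and pericyte, and 6 of 8 for niche and growth factors, beside 14.5% of all 1825 genes at that level. Genes of the endothelial lists passed as well, with 2 of 3 for endothelial identity and 2 of 2 for endothelial transcription factors. For sinusoidal endothelium it was 3 of 4, and for arterial, venous and lymphatic endothelium 1 of 1. The collagens that chose the 2 cells are among the 13, so this count describes the set and does not test it. With 2 cells, 1 per 10000 is reached by 4 counts, so this share of all genes is a loose background. Only 3 cells of the library reached 5 per 10000 of the 3 collagens.

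The bulk libraries, which played no part in choosing the cells, were then used to ask how the same genes behaved when EKLF was absent and between EKLF/GFP+ and EKLF/GFP- cells. Values are CPM, the counts of a gene scaled to the library total after TMM correction, each comparison was scaled and fitted alone, and adjusted p-values come from the two-sided quasi-likelihood test of edgeR, adjusted by Benjamini-Hochberg across the whole table. In bulk samples, fewer cells of a type and less RNA per cell cannot be told apart. Library totals ran from 10695514 to 15362161 counts for EKLF+/+ and EKLF-/- cells, and from 22721821 to 28735267 for the GFP fractions. Klf1 itself was at 362, 305 and 376 CPM in EKLF+/+, and at 58.7, 64.2 and 57.1 in EKLF-/- libraries.

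In EKLF-/- F4/80+ cells, the VEGF and angiopoietin receptor genes Kdr, Flt1, Flt4 and Tek, the stabilin gene Stab2 but not Stab1, and 5 of 12 tested genes of the basement membrane were lower. Of the 48 genes restricted to the endothelial set, all 48 were tested, and 24 fell and 1 rose, beside 10.6% of all 12753 genes that were lower and 9.72% that were higher (20.3% in either direction). The 36 restricted to the endothelial set alone gave 18 lower and 1 higher with a median log2 fold change of -0.68, the 12 shared with the mesenchymal cells gave 6 lower with a median of -0.50, and the median of all genes tested was 0.02. The summed level of these 36 genes overlapped between the groups, at 994.1 to 1236 CPM in EKLF+/+ and 936.2 to 1151 in EKLF-/- libraries (ratio of means 0.904), and Vim, the gene that rose, gave 237.9 to 303.1 and 333.3 to 533.7 CPM of these sums. The sum of the 12 shared genes was 233.1 to 278.4 and 199.6 to 228.0 CPM and did not overlap. With at least 10 counts demanded in every library, 33 of the 36 remained for testing, of which 17 were lower and 1 higher. Leaving out EKLF+/+ replicate 1 brought the number of lower genes to 9. It was 14 if EKLF+/+ replicate 2 was omitted, 15 if EKLF+/+ replicate 3 was, and 9 if EKLF-/- replicate 3 was. The same omissions brought all called genes from 2595 to between 922 and 1026.

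Kdr was at 36.8, 34.5 and 29.4 CPM in the EKLF+/+ libraries and at 20.1, 16.4 and 14.6 in the EKLF-/- libraries. The groups did not overlap, which was so for 23.4% of all genes in this direction, and Kdr fell by 0.98 on the log2 scale (SE 0.16, edgeR, Benjamini-Hochberg adjusted p = 0.00494). The kinase receptor Tek went from 11.5, 12.0 and 12.0 to 6.05, 3.98 and 4.93 CPM, with no overlap (log2 fold change -1.24, SE 0.19, edgeR adjusted p = 0.00389). The tyrosine phosphatase Ptprb, which acts on Tek and on VE-cadherin, went from 9.24, 5.86 and 8.46 to 2.64, 1.99 and 2.16 CPM, again without overlap (-1.78, SE 0.24, edgeR adjusted p = 0.00238). All 3 calls held when any 1 library was left out. Flt1 and Flt4 both had a log2 fold change of -0.87, Clec14a and Tie1 of about -0.73, Calcrl of -0.62 and Eng of -0.61, all called by edgeR. Each of these 6 calls was lost without at least 2 of the 6 libraries, in every case without EKLF-/- replicate 3, and over all alternatives Flt1 ran from -0.995 to -0.80.

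Among sinusoidal genes, Stab2 was at 61.0, 42.2 and 43.2 CPM in EKLF+/+ and 21.6, 16.4 and 17.6 in EKLF-/- libraries. Every EKLF-/- library lay below every EKLF+/+ library, and the log2 fold change was -1.39 (SE 0.18, edgeR adjusted p = 0.00193). Lyve1 went from 28.6, 20.1 and 27.7 to 17.9, 14.8 and 11.8 CPM without overlap (-0.77, SE 0.20, edgeR adjusted p = 0.0297). Gpr182 (-0.68), Dnase1l3 (-1.43) and Bmp2 (-1.48) were also called lower. The call of Stab2 held without any 1 library, whereas those of Lyve1, Gpr182, Dnase1l3 and Bmp2 were lost without EKLF+/+ replicate 1, EKLF+/+ replicate 3 or EKLF-/- replicate 3. In the single-cell library, the endothelial set held 80.1% of Gpr182 and 65.9% of Bmp2 counts. It held only 30.4% of Dnase1l3 counts, and macrophages held 60%. Of all 18 sinusoidal genes, 15 were tested, 7 were lower and 1, Ctsl, was higher, beside the 10.6% and 9.72% of all genes, and their summed level overlapped between the groups (337.7 to 379.6 and 296.7 to 342.5 CPM).

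Not every endothelial gene fell. Cldn5 was at 3.51, 3.53 and 3.32 CPM against 2.57, 5.50 and 2.31, and the groups overlapped (log2 fold change 0.00, SE 0.35, edgeR adjusted p = 1.00). Egfl7 (0.07), Stab1 (-0.14), Ets1 (-0.10) and Elk3 (-0.19) had no call either. Oit3 was at 22.0, 17.6 and 17.8 against 16.1, 15.5 and 13.9 CPM, which did not overlap but did not pass the test (-0.33, SE 0.15, edgeR adjusted p = 0.131). Vim rose by 0.65 on the log2 scale, a call lost without any of the 3 EKLF+/+ libraries or without EKLF-/- replicate 3. These genes differed in where their transcripts lay in the single-cell library, with 80.7% of Cldn5 and 82.1% of Oit3 counts in the endothelial set, but 25.3% of Egfl7 and 8.71% of Vim counts.

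Cdh5, the rule gene shared with macrophages, was at 29.7, 24.4 and 25.4 CPM in EKLF+/+ and 14.9, 11.2 and 11.8 in EKLF-/- libraries. It did not overlap between the groups and fell by 1.07 on the log2 scale (SE 0.16, edgeR adjusted p = 0.00326), a call that held without any 1 library. Notch1 (-0.78), Nrp2 (-0.91), the venous factor Nr2f2 (-0.99) and Gata4 (-0.86) were lower as well. Notch1 lost its call without EKLF+/+ replicate 1 or 2, and the other 3 without EKLF+/+ replicate 1 or EKLF-/- replicate 3, among others. In the single-cell library, the endothelial set held 76.1% of Nr2f2 and 70.4% of Gata4 counts, but 14.9% of Notch1 and 15.4% of Nrp2. Macrophages held 40.7% of Notch1 and 78.6% of Nrp2 counts. The macrophage gene Adgre1 was at 26.8, 33.6 and 32.5 against 31.3, 40.3 and 29.4 CPM and was not called.

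Matrix genes gave a mixed result. Hspg2 was at 73.5, 79.4 and 58.5 CPM in EKLF+/+ and 29.9, 14.7 and 22.7 in EKLF-/- libraries, with no overlap and a log2 fold change of -1.65 (SE 0.24, edgeR adjusted p = 0.00325). Col4a1 (-0.73), Col4a2 (-1.01) and Nid1 (-1.17) were lower too. With Nid2 (-0.70), which was not among the restricted genes and is named here after its value was seen, 5 of 12 basement membrane genes tested were called lower and none higher, beside 10.6% and 9.72% of all genes. Hspg2, Col4a1 and Col4a2 kept their calls without any 1 library, and Nid1 lost its call without any EKLF+/+ library or without EKLF-/- replicate 3. Sparc fell by 0.46 on the log2 scale, a call lost without 5 of the 6 libraries.

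The calls of collagens of the mesenchymal set did not hold when single libraries were left out. Col1a1 was at 13.3, 39.5 and 4.40 CPM in EKLF+/+ and 5.70, 3.52 and 2.70 in EKLF-/- libraries. The groups overlapped, EKLF+/+ replicate 2 stood far above the rest, and the log2 fold change was -2.27 (SE 0.69, edgeR adjusted p = 0.0496). The calls of Col1a1 and Col1a2 were each lost without EKLF+/+ replicate 1, EKLF+/+ replicate 2, EKLF-/- replicate 2 or EKLF-/- replicate 3. Col3a1 had the same high library (12.8, 42.1 and 9.13 against 9.66, 5.81 and 7.17 CPM) and was not called (-1.51, SE 0.53, edgeR adjusted p = 0.0727). Of 31 genes restricted to the mesenchymal set alone, 25 were tested and 4 were lower (Col1a1, Col1a2, Dcn and Pdgfra), none higher, with a median of -0.66, beside 10.6% of all genes lower and 9.72% higher, so the count was near the background. None of them was called once EKLF+/+ replicate 2 was left out, and the same held for EKLF-/- replicate 3. Of the 4, Dcn alone was called without EKLF+/+ replicate 1 or EKLF-/- replicate 2, and Col1a1 and Col1a2 without EKLF+/+ replicate 3.

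Markers of other cell types moved in the same libraries, and their counts stand beside the 10.6% of all genes that were lower and the 9.72% that were higher. The summed erythroid markers were 25050 to 37040 CPM in EKLF+/+ and 10590 to 12360 in EKLF-/- libraries, with 7 of 14 tested genes lower and 1 higher. Summed granulocyte and monocyte markers were 6539 to 8230 and 8823 to 17040 CPM, with 8 of 14 genes higher and none lower. Stem and progenitor markers were 643.9 to 769.0 and 532.3 to 559.5 CPM, with 4 of 9 genes lower and 1 higher. Macrophage markers overlapped (500.7 to 628.3 and 608.6 to 995.3 CPM, 3 higher and 2 lower of 20), as did hepatoblast markers (0 of 15 called). Cell cycle genes were 9282 to 10330 and 6975 to 9269 CPM (1 of 16 lower), and mesothelial markers 215.4 to 219.2 and 274.9 to 346.7 (1 of 4 tested higher and 1 lower), neither with overlap. The part of these shifts in the endothelial values was not tested.

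**Figure D3:**
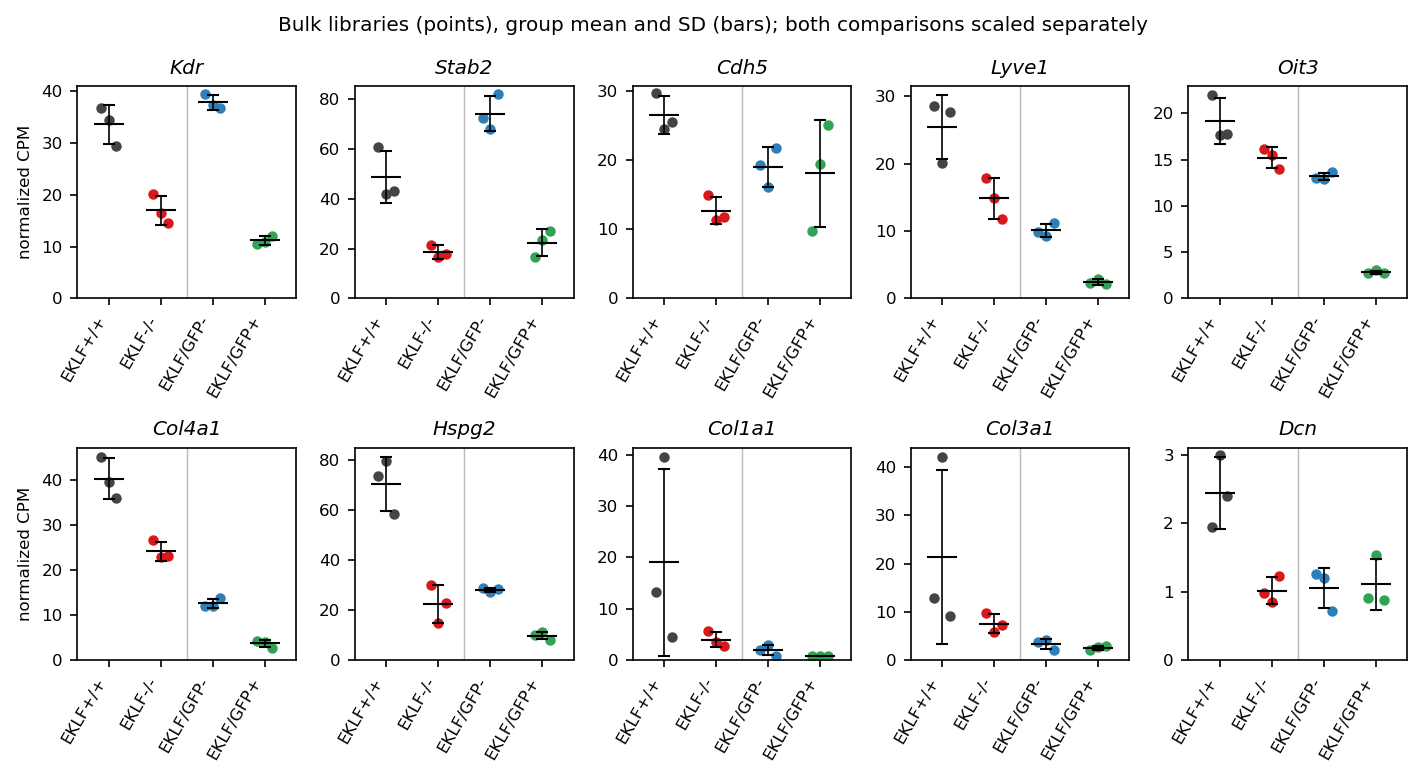
CPM of 10 genes in each bulk library (points) with the group mean and SD (bars, n = 3), for EKLF+/+ and EKLF-/- on the left of each panel and EKLF/GFP- and EKLF/GFP+ on the right. The 2 comparisons were counted and scaled separately, so levels are read within each. Kdr, Stab2, Lyve1, Col4a1 and Hspg2 do not overlap between groups in either comparison, Cdh5 overlaps between the GFP fractions, and EKLF+/+ replicate 2 stands at 39.5 CPM for Col1a1.

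Between the GFP fractions most of the endothelial genes were lower in the GFP-positive cells. Klf1 was at 101, 90.2 and 87.3 CPM in EKLF/GFP+ and 34.6, 45.7 and 28.6 in EKLF/GFP- libraries. Of the 48 genes restricted to the endothelial set, all were tested and 41 were lower in EKLF/GFP+ cells and none higher. The 41 include Cldn5, Bmp2, Ecscr and Gata4, which entered the test only through the EKLF/GFP- libraries, where they were high. With 10 counts demanded in every library, 35 genes were lower. In this comparison 44.7% of 14238 genes were called, 25.8% lower and 18.9% higher. The 36 genes restricted to the endothelial set alone gave 31 lower with a median log2 fold change of -1.83, and the 12 shared with the mesenchymal cells gave 10 lower with a median of -1.60, against a median of -0.01 over all genes. The summed level of the 36 was 984.2 to 1060 CPM in EKLF/GFP- and 285.2 to 343.8 in EKLF/GFP+ libraries. This sum includes Vim (log2 fold change -2.44), with 58.9% of its single-cell counts in the other cells and 8.71% in the endothelial set. The sum is therefore not a measure of endothelial cells alone. With at least 10 counts in every library, 30 of the 36 genes remained for testing, of which 26 were lower. Leaving out 1 library changed the 41 to no fewer than 37. It was 37 without each EKLF/GFP- library, where Cldn5, Bmp2, Ecscr and Gata4 were no longer tested.

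Kdr was at 39.5, 37.3 and 36.8 CPM in EKLF/GFP- and 10.6, 10.9 and 12.1 in EKLF/GFP+ libraries, a 3.38-fold lower level (log2 fold change -1.76, SE 0.09, edgeR adjusted p = 1.05e-05). No EKLF/GFP+ library reached the EKLF/GFP- range, as was so for 30.5% of all genes in this direction. Stab2 went from 72.7, 68.2 and 82.1 to 16.7, 23.3 and 27.3 CPM (-1.73, SE 0.17, edgeR adjusted p = 0.000127). Oit3 went from 12.97, 12.95 and 13.66 to 2.72, 3.03 and 2.70 CPM (-2.23, SE 0.13, edgeR adjusted p = 1.26e-05). Neither gene overlapped between the fractions. The adhesion receptor gene Adgrl4 had the most negative log2 fold change of the 48 at -3.23, and of those with 10 counts in every library the ETS factor Elk3 (-2.85) and Flt1 (-2.62) followed. In the single-cell library, 37.9% of Adgrl4 and 27.7% of Elk3 counts lay in the endothelial set, against 76.4% of Flt1. The other cells held 55.5% of Adgrl4 and 41% of Elk3 counts. Cldn5 (-2.80), Bmp2 (-2.72) and Emcn (-2.71) had as few as 3, 3 and 7 counts in an EKLF/GFP+ library. Cldn5, Bmp2, Ecscr (-2.21) and Gata4 (-1.78) reached the count minimum only in the EKLF/GFP- libraries, where they were high. A difference was thus built into their being tested, and their fold changes are only described.

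The exceptions included F8, at 13.2, 12.9 and 12.2 CPM in EKLF/GFP- and 12.7, 13.9 and 13 in EKLF/GFP+ libraries, which overlapped (0.05, SE 0.10, edgeR adjusted p = 0.74). Egfl7 (-0.21), Plvap (-0.39), Ehd3 (-0.12), Myct1, Dnase1l3 (-0.95) and Nrp2 (-0.79) were not called either. Cdh5 was at 19.3, 16.0 and 21.7 against 9.76, 19.4 and 25.02 CPM and overlapped fully (-0.07, SE 0.30, edgeR adjusted p = 0.869). Stab1, which is shared with macrophages, was lower (48.8, 46.4 and 50.04 against 13.7, 22.0 and 32.0 CPM, log2 fold change -1.10, edgeR adjusted p = 0.00901), and Mrc1 (-0.71) and Maf (-0.77) were not called.

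Collagens were low in these libraries. Col1a1 was at 2.01, 2.81 and 0.806 CPM in EKLF/GFP- and 0.725, 0.705 and 0.676 in EKLF/GFP+ libraries (-1.42, SE 0.43, edgeR adjusted p = 0.0286), and its call was lost without any 1 of 5 of the 6 libraries. Col1a2 (-0.16) and Col3a1 (-0.42) were not called. Of the 31 genes restricted to the mesenchymal set alone, 19 were tested, with 3 lower (Col1a1, Alcam and Abcc9) and 2 higher (Col5a1 and Mdk) and a median of -0.42. Both counts lay below the background of 25.8% of all genes lower and 18.9% higher. Without EKLF/GFP- replicate 1 only 1 gene was lower, since Col1a1 and Abcc9 lost their calls, and Mdk lost its call without that library, EKLF/GFP- replicate 2 or EKLF/GFP+ replicate 3. Col5a1 was at 5.61, 5.07 and 5.77 against 12.5, 15.6 and 14.2 CPM, and in the single-cell library 88.9% of its counts lay in the other cells.

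The fractions differed in further cell type markers, whose counts stand beside 25.8% of all genes lower and 18.9% higher. Summed erythroid markers were 8944 to 11300 CPM in EKLF/GFP- and 17840 to 23230 in EKLF/GFP+ libraries, with all 17 tested genes higher. Granulocyte and monocyte markers were 5362 to 5998 and 543.3 to 872.2 CPM (14 of 14 lower), lymphoid markers 54.6 to 64.2 and 9.37 to 12.7 (8 of 8 tested lower), and stem and progenitor markers 769.9 to 886.6 and 292.6 to 384.5 (9 of 9 lower). Genes can enter the test through EKLF/GFP- alone, and with 10 counts demanded in every library 3 lymphoid and 6 stem and progenitor genes remained, all lower. Megakaryocyte markers were 163.8 to 192.3 and 238.4 to 341.7 CPM (9 of 10 higher, 1 lower), cell cycle genes 9654 to 11880 and 14690 to 15240 (12 of 16 higher, none lower), and mast cell and basophil markers 252.3 to 336.3 and 150.3 to 203.2 (2 of 7 tested lower), each without overlap. Mesothelial markers were 33.6 to 52.3 and 78.9 to 118.2 CPM without overlap, with 1 of 3 tested genes higher and 1 lower. The limit given above for the mesothelial sum holds here too. Macrophage markers overlapped, at 564.5 to 833.5 and 337.9 to 847.3 CPM, with 7 of 20 lower and 1 higher. Early response and heat shock genes overlapped as well, at 2340 to 2600 and 2360 to 2530 CPM, with 6 of 14 lower and 2 higher. The part of these shifts in the endothelial values was not tested.

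**Figure D4:**
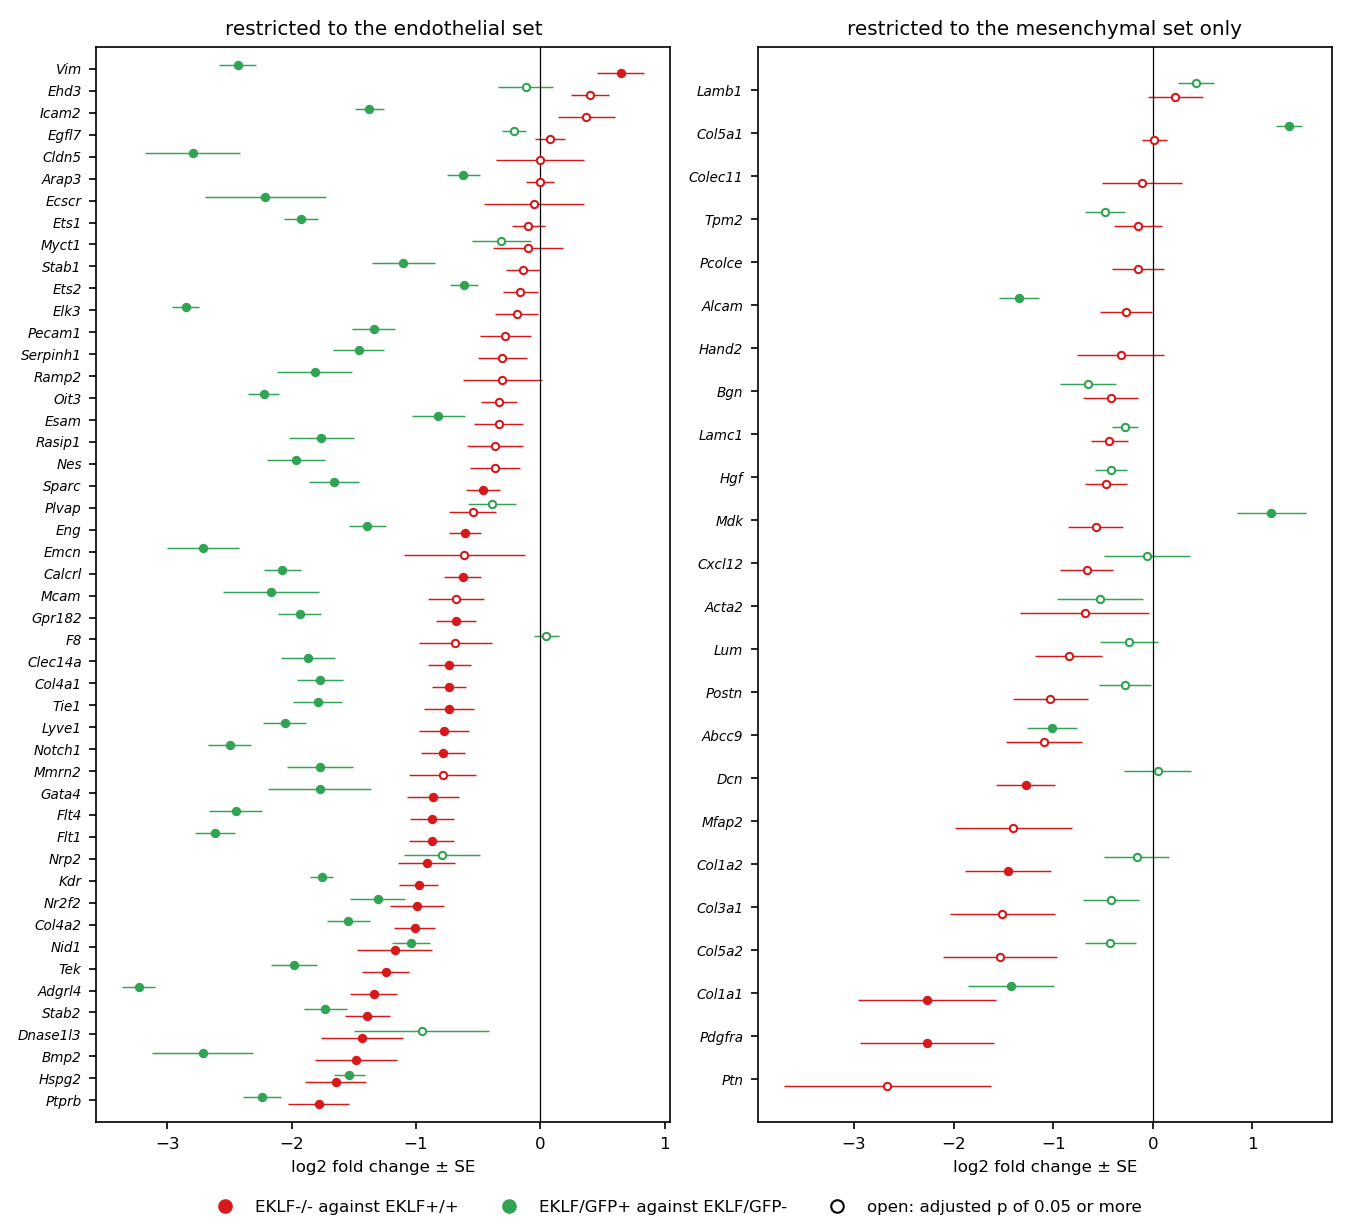
Log2 fold change with its SE (edgeR) of the tested genes restricted to the endothelial set (left) and to the mesenchymal set alone (right), with the EKLF-/- comparison in red and that of the GFP fractions in green. 1 tested gene of the right panel is not shown. Filled points passed an adjusted p of 0.05. On the left 24 genes are lower and 1 higher in EKLF-/-, and 41 are lower in EKLF/GFP+, while on the right 4 and 3 are lower. The 41 include Cldn5, Bmp2, Ecscr and Gata4, which entered the test only through the EKLF/GFP- libraries.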

How the data were processed

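Deposited single-cell values were estimated molecule counts made by the authors with Alevin against the GRCm38 transcriptome. Deposited counts for EKLF+/+ and EKLF-/- were made by the authors with STAR (mm10) and HTSeq, and the estimated counts of the GFP fractions with Salmon (GRCm38). Of the reads counted with HTSeq, 71.05, 72.69 and 72.3% in EKLF+/+ and 67.22, 68.93 and 68.48% in EKLF-/- libraries lay on rows without a gene. They were left out. These shares did not overlap between the groups, and their part in the comparison was not tested. The Salmon values were summed to 35389 genes (115898 of 116546 transcripts joined) and rounded, and 5 columns of other libraries were not used. The cell filter of the study was not used. Cells were clustered with Seurat 5.3.0 (4000 variable genes, 30 components, resolution 0.8). Scrublet (in scanpy 1.11.5) marked 0 of 3093 cells, so it did not work here and doublets were kept. Genes that reached 10 counts in 3 or more of the 6 bulk libraries were tested with edgeR 4.0.16 (R 4.3.3), TMM scaling, Benjamini-Hochberg adjustment and a threshold of 0.05, which was also run on simulated data. DESeq2 1.42.0 was an alternative. Cells, gene lists and tests were chosen with earlier results of these data known. Genes were named by rule: the 6 rule genes, the 15 with the largest ratio between the sets each way (at least 2 per 10000 and in at least 25% of cells, 0.1 added), and listed genes at 1 per 10000 or more, in full where at least 4 times the other sets. The ranking against all sets, and single genes named as exceptions, were chosen after values were seen. Replicate numbers do not mark shared animals in the sources. P-values measure the spread between these libraries. The result of 1 gene is not reported here, but the counts over lists include it.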

Additional observations from a re-analysis of the deposited data

How the results depend on the processing

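Members numbered 58 to 90 under other marker, C1q, hepatic and gene number limits, except 255 (252 endothelial) with no C1q limit, which also admits macrophages with Cdh5; without Cdh5 as well, there were 70 and 67. Restricted listed genes in the endothelial set numbered 45 to 48. In EKLF-/- against EKLF+/+, called genes were 1901 to 3230 under other tools, filters, scaling and the replicate block, and 922 to 3619 with 1 library left out, for which the cause was not tested. Lower genes restricted to the endothelial set were 23 or 24 and 9 to 24, respectively. Lower genes restricted to the mesenchymal set were 3 to 6, 1 with the replicate block (Col1a1, Col1a2 and Pdgfra lost their calls, as did Sparc), and 0 to 5 with 1 library left out. In EKLF/GFP+ against EKLF/GFP-, called genes were 5786 to 6538 and 4737 to 6238, lower endothelial genes 35 to 42 and 37 to 41, and lower mesenchymal genes 3 and 1 to 4. Same-numbered libraries did not deviate together (correlations -0.01, 0.00 and 0.06 for the EKLF comparison, and 0.03, -0.09 and 0.02 for the GFP fractions), so the numbers were not taken as pairs, and the replicate block gave 1901 and 5786 called genes.

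Signs that turned belonged to uncalled genes, and the cause was not tested. For EKLF-/- against EKLF+/+, Cldn5 was -0.011 with DESeq2, -0.012 with its size factors, -0.005 with no filter, -0.013 with 10 counts in every library and -0.07 with the replicate block, where Arap3 was 0.006. With 1 library left out, log2 fold changes ran from -0.51 to 0.22 for Cldn5, -0.12 to 0.043 for Arap3, -0.043 to 0.16 for Egfl7, -0.44 to 0.20 for Ecscr, -0.31 to 0.05 for Myct1, -0.065 to 0.069 for Col5a1, -0.45 to 0.01 for Alcam, -0.42 to 0.036 for Colec11, -1.10 to 0.68 for Acta2 and -0.30 to 0.13 for Tpm2. For EKLF/GFP+ against EKLF/GFP- they ran from -0.37 to 0.26 for Cdh5, -0.40 to 0.18 for Col1a2, -0.25 to 0.068 for Ehd3, -0.24 to 0.21 for Dcn and -0.43 to 0.21 for Cxcl12. The 1 single-cell library and the 2 mesenchymal cells limit every statement on levels, and 3 libraries a group limit the bulk calls.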
